A study of Mus musculus with 4 samples.

Results

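The genes described here encode metalloproteases of the ADAM, matrix metalloproteinase (MMP) and ADAMTS families together with their tissue inhibitors, the TIMPs. They were taken by name from a list of 33 symbols, and each gene was read from the array row that carried its symbol alone, the brightest such row where there were several. This gave 32 genes of 22180 named on the arrays: 10 ADAMs, 12 MMPs, 6 ADAMTSs and 4 TIMPs. Adamts2 was not analysed here. The RNA came from macrophages of the ear skin of adult C57Bl/6 mice, untreated, in which 1 Cx3cr1 allele carries GFP. The cells were sorted from digested skin into a CX3CR1low and a CX3CR1bright subset, with 2 arrays for each subset and 3 to 6 mice pooled per array. The replicates of a subset came from 2 independent litters, and animals of both subsets carried the same reporter allele and so had 1 intact copy of Cx3cr1. Values are RMA log2 levels, so that a step of 1 is a 2-fold change.

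These enzymes hold a zinc ion in the active site and cut proteins outside the cell or at its surface. ADAMs are anchored in the membrane and release the outer parts of cytokines, growth factors and receptors, MMPs cleave collagens, elastin and many other proteins of the matrix, and ADAMTS enzymes are secreted and act on proteoglycans and on procollagen. Most are made as inactive precursors, and TIMPs block the active site. In skin, macrophages and fibroblasts are both known sources of such enzymes, during matrix turnover and wound repair.

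The arrays had medians of 3.65 to 3.68, and a level near these can be background. A gene was tested where at least 2 arrays lay above their own median, which left 13133 genes, 29 of the 32 among them. Adam12, Mmp8 and Timp4 were too dim and are given as values without a test. Cx3cr1, the gene behind the gate, read 3.63 and 3.60 on the CX3CR1low arrays and 8.42 and 8.44 on the CX3CR1bright arrays. The 11 macrophage markers with a row lay above the median on all 4 arrays, and 8 of them had negative differences. Each difference below is the CX3CR1bright mean less the CX3CR1low mean in log2 units, with limma's moderated standard error, and the median difference of all tested genes was -0.070. With 2 arrays in each subset an exact permutation test of a single gene cannot go below p = 0.333.

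In CX3CR1bright macrophages Adam23, a member of the ADAM family without protease activity, was 4.94-fold higher, and it was the one gene of the 29 that passed an adjusted p of 0.05. That threshold was passed by 0.137% of all tested genes. Among the others the MMPs stood farthest apart: 6 of 11 tested MMPs (Mmp13, Mmp25, Mmp12, Mmp3, Mmp2 and Mmp14) were at least 2-fold higher in CX3CR1bright cells with no overlap between the subsets, against 2.94% of all tested genes. Mmp19 was the one MMP at least 2-fold lower without overlap, and so was Timp1 among the inhibitors, against 2.89% of all tested genes. None of these passed the adjusted threshold. With 1 array left out, Mmp12 and Mmp14 fell under the 2-fold step without CX3CR1low replicate 2, at 0.79 and 0.99. Mmp12 also did so without CX3CR1bright replicate 1 (0.79), and Mmp14 without CX3CR1bright replicate 2 (0.84). The rest of the 6 MMPs kept it. On the lower side Mmp19 fell short of 2-fold without CX3CR1bright replicate 2 (-0.70), and Timp1 without CX3CR1low replicate 1 (-0.99). Leaving out arrays for this comparison was chosen after the data were seen.

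At an unadjusted p under 0.05 (limma), 9 of the 29 tested genes were higher and 7 were lower, against 7.03% and 11.8% of all tested genes. Of the 9, Adamts12 was tested only through the CX3CR1bright arrays. With any 1 array left out both counts were lower. Over all tested genes both counts fell too, except without CX3CR1bright replicate 1, where they rose. With all rows of a gene averaged, Adam15 and Mmp11 dropped out, which left 9 higher and 5 lower (limma). Over all 13025 genes tested that way, 906 were higher and 1538 lower. Without overlap between the subsets were 10 higher and 12 lower genes, against 18.9% and 31.5%. The 10 include Adamts12, and 221 of all tested genes were likewise tested only through the CX3CR1bright arrays. Such a gene can hardly fall on the lower side. Of the 12 lower genes, 6 were ADAMs with protease activity, with differences from -0.74 to -0.15. The 28 ADAM, MMP and ADAMTS genes with a row, called proteases here, include Adam22 and Adam23, which lack protease activity. Of their differences 15 were positive and 13 negative with a median of 0.23. Over the 4 TIMPs 1 was positive and 3 negative with a median of -0.48. Over the 26 tested proteases the median was 0.080. Over all 22180 named genes 10227 differences were positive and 11942 negative, with a median of -0.032. Leaving out CX3CR1low replicate 1 gave a protease median of -0.074, leaving out CX3CR1low replicate 2 one of 0.41, and leaving out CX3CR1bright replicate 2 one of 0.12. By family the median was 0.73 for the MMPs, 0.48 for the ADAMTSs and -0.20 for the ADAMs. These medians describe the chosen genes and were not tested.

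**Figure D1:**
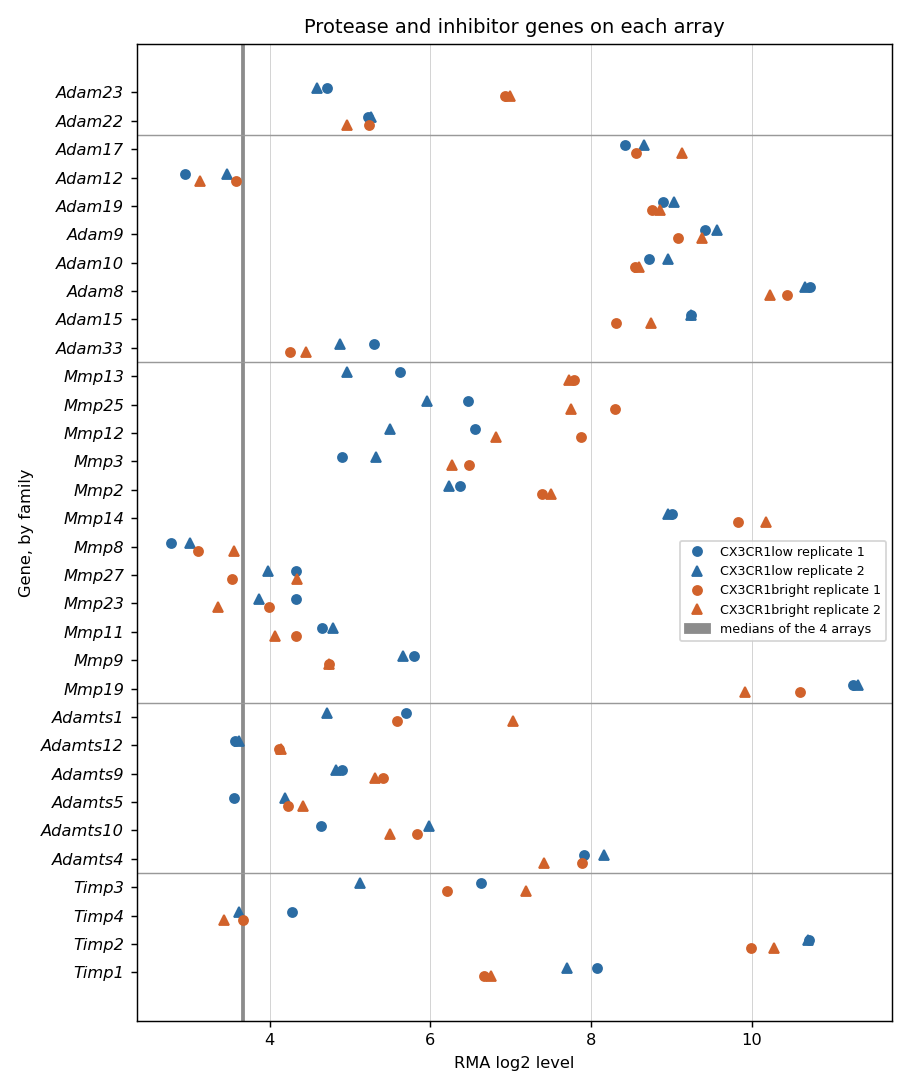
RMA log2 level of each gene on each of the 4 arrays, grouped by family (ADAMs without and with protease activity, MMPs, ADAMTSs, TIMPs). Blue points are CX3CR1low arrays and orange points CX3CR1bright arrays, circles are replicate 1 and triangles replicate 2, and the grey bar marks the array medians of 3.65 to 3.68. Adam23, Mmp13 and Mmp25 show orange points well to the right of the blue ones, and Timp1 and Mmp19 the reverse.

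Adam23 (transcript cluster 17213608) encodes a surface protein of the nervous system that lacks the zinc-binding residues of an active protease and binds secreted LGI proteins and the integrin alpha-v beta-3. It stood at 4.72 and 4.59 on the CX3CR1low arrays and at 6.92 and 7.0 on the CX3CR1bright arrays. The CX3CR1bright values lay above both CX3CR1low values and close together. The difference was 2.31 ± 0.18 (limma, adjusted p = 0.0476). It stayed between 2.24 and 2.37 with any 1 array left out, but the call was lost without either CX3CR1low array (adjusted p of 0.208 for replicate 1 left out, 0.322 for replicate 2) and when CX3CR1bright replicate 2 was dropped (adjusted p = 0.0974). The adjusted p was also 0.0587 with no filter on dim genes, 0.0541 after quantile normalization and 0.0513 under a robust variance prior.

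Its close relative Adam22 encodes another catalytically inactive receptor for LGI proteins. Adam22 read 5.22 and 5.26 in CX3CR1low cells and 5.23 and 4.97 in CX3CR1bright cells, so the subsets overlapped, with a difference of -0.14 ± 0.20. Of the binding partners, the integrin alpha-v gene Itgav stood at 8.46 and 8.38 against 9.50 and 10.02, a difference of 1.34 ± 0.24 (limma, adjusted p = 0.0978). Itgb3, for the beta-3 chain, overlapped between the subsets with a difference of -0.37 ± 0.54. The genes Lgi1 to Lgi4 were all too dim to test, with levels of 2.45 to 3.76.

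The ADAMs with protease activity were higher on the CX3CR1low side for the most part, by small amounts that depended on the scaling. After cyclic loess scaling Adam8 differed by -0.25, Adam9 by -0.13, Adam10 by -0.13 and Adam19 by -0.021. Adam15 then differed by -0.58, Adam33 by -0.69 and Adam17 by 0.43. The median of all tested genes was -0.070 as deposited and 0.017 after cyclic loess. As deposited it was -0.12 over the 6141 genes above the 75th percentile on all arrays. Adam10, the sheddase of Notch receptors and of CX3CL1, the ligand of CX3CR1, read 8.72 and 8.96 in CX3CR1low and 8.55 and 8.60 in CX3CR1bright cells, a difference of -0.27 ± 0.19. Adam17, which releases TNF from the cell surface, read 8.43 and 8.65 against 8.55 and 9.13, a difference of 0.30 ± 0.26. The 2 subsets did not overlap for Adam10 and did for Adam17, and neither difference reached an unadjusted p of 0.05 (limma, 0.221 and 0.300).

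Adam15, an ADAM that carries an integrin-binding RGD sequence in humans, read 9.25 and 9.24 in CX3CR1low cells and 8.31 and 8.74 in CX3CR1bright cells. The difference was -0.72 ± 0.22 (limma, adjusted p = 0.190). Adam33, known as an asthma susceptibility gene in humans, read 5.30 and 4.88 against 4.25 and 4.45, a difference of -0.74 ± 0.23 (limma, adjusted p = 0.188). Both genes were lower on both CX3CR1bright arrays. Adam8, which is found on myeloid cells, differed by -0.36 ± 0.19, Adam9 by -0.25 ± 0.21 and Adam19 by -0.15 ± 0.19. These 3 were bright on all arrays, from 8.75 for Adam19 to 10.72 for Adam8, and their subsets did not overlap. Adam12 lay below the median on all 4 arrays, at 2.95 to 3.58. A second, dimmer row for Adam15 and for Adam19 differed by -0.11 and -0.19.

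**Figure D2:**
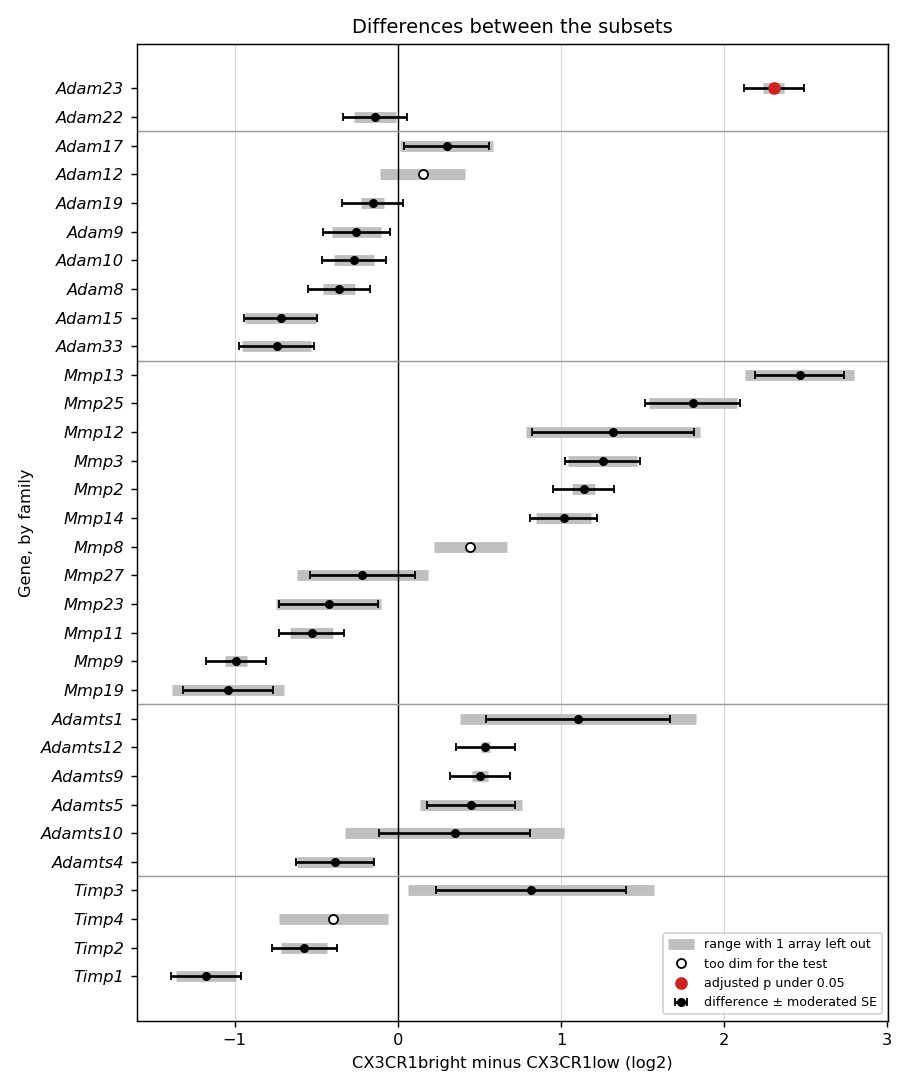
Difference of each gene, CX3CR1bright minus CX3CR1low on the log2 scale, by family. Black points and bars are the difference and its moderated standard error, grey bars the range with 1 array left out, open points genes too dim for the test, and the red point the 1 gene past an adjusted p of 0.05, Adam23 at 2.31. The MMPs spread from -1.04 for Mmp19 to 2.46 for Mmp13, while the ADAMs with protease activity lie between -0.74 and 0.30.

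Of the secreted MMPs, Mmp13, the main interstitial collagenase of mice, was farthest apart. Mmp13 (cluster 17514482) read 5.63 and 4.96 in CX3CR1low cells and 7.79 and 7.72 in CX3CR1bright cells, or 5.51-fold higher. Both CX3CR1bright arrays lay above both CX3CR1low arrays. The difference of 2.46 ± 0.27 had an adjusted p of 0.0631 (limma). With 1 array left out the adjusted p was 0.0465 without CX3CR1bright replicate 1, and otherwise 0.109 to 0.336. Mmp12, the macrophage elastase, read 6.56 and 5.50 against 7.88 and 6.81. Replicate 1 was the higher array of both subsets, and the difference of 1.32 ± 0.50 had an adjusted p of 0.247 (limma). It was 0.79 without CX3CR1low replicate 2 or CX3CR1bright replicate 1, under the 2-fold step, and 1.85 without 1 of the other arrays. Mmp3, stromelysin-1, which cleaves proteoglycans and activates other MMPs, read 4.90 and 5.33 against 6.48 and 6.26. Its subsets did not overlap, and the difference was 1.26 ± 0.23 (limma, adjusted p = 0.101).

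Mmp13, Mmp12 and Mmp3 lie in a cluster of 10 MMP genes on mouse chromosome 9. In RefSeq order the cluster runs Mmp13, Mmp12, Mmp1b, Mmp3, Mmp1a, Mmp10, Mmp8, Mmp27, Mmp20 and Mmp7. Of the other genes Mmp10, stromelysin-2, read 3.47 and 3.26 in CX3CR1low and 3.83 and 3.94 in CX3CR1bright cells, near the array medians, and was tested only through the CX3CR1bright arrays. Mmp8, the neutrophil collagenase, lay below the median on all arrays, at 2.78 to 3.56. Mmp27 overlapped between the subsets at 3.53 to 4.33, with a difference of -0.22 ± 0.32. The genes Mmp1a, Mmp1b, Mmp7 and Mmp20 were too dim to test. Mmp13, Mmp12 and Mmp3 were thus the genes of this cluster that lay above the median on all 4 arrays.

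**Figure D3:**
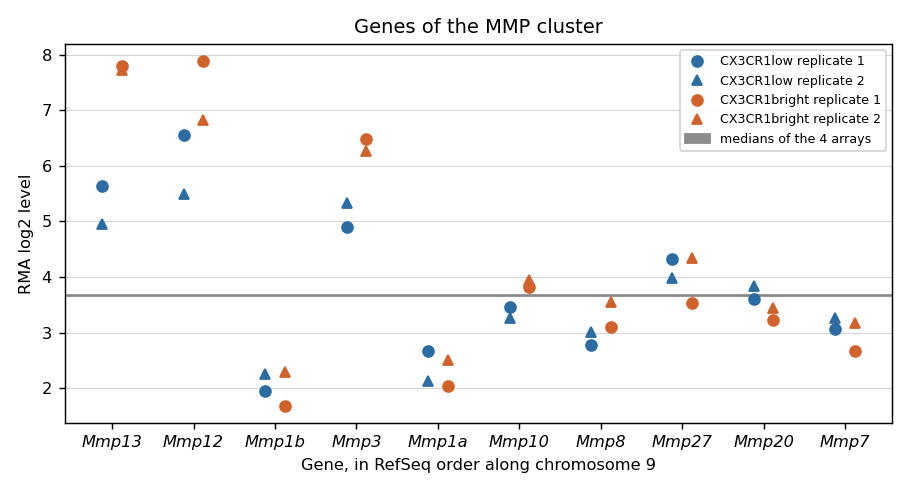
RMA log2 level on each array of the 10 genes of the MMP cluster, in their order along chromosome 9 and not to genomic scale. Colours, symbols and the grey bar are as defined in the legend. Mmp13, Mmp12 and Mmp3 lie above the grey bar on all arrays, with orange points above blue ones, and the other 7 genes lie near or below it.

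The promoters of the 3 genes are shown because they share motifs, a location and the sign of their difference. RefSeq promoters of 300 bases (build GRCm38.p6, 250 bases before to 50 after an annotated start) were at hand for 24 of the 33 listed genes. They were searched on both strands for TGANTCA, the letters bound by AP-1 (the Fos and Jun factors known for control of MMP genes), and for TATAAA. Mmp2, Mmp9, Mmp19, Adam9, Adam12, Adam33, Adamts4, Adamts5 and Adamts10 had no promoter at hand and were not searched. The matches did not overlap each other, and TGANTCA reads the same on both strands. TGANTCA occurred in 7.81% of all 32851 promoters, TATAAA in 13.6% and both in 1.54%. Counted by gene, 2425 of 27025 held TGANTCA in at least 1 promoter, 4234 TATAAA and 496 both in 1 promoter. Among the 24 genes, which have 28 promoters, 5 held TATAAA (Mmp13, Mmp12, Mmp3, Mmp8 and Adamts1), 4 held TGANTCA, namely Mmp13, Mmp12, Mmp3 and Adam19, and 3 held both motifs, Mmp13, Mmp12 and Mmp3. In Mmp13 (chr9:7272264-7272563, plus strand), Mmp12 (chr9:7347124-7347423, plus strand) and Mmp3 (chr9:7445572-7445871, plus strand) the first base of TGANTCA lay 35, 44 and 46 bases before the start. In the same order the first base of TATAAA lay 16, -4 and 7 bases before the start, so in Mmp12 it came after the annotated start. Mmp12 has another annotated start, whose promoter held neither motif. The promoter of the dim neighbour Mmp8 (chr9:7558179-7558478, plus strand) held TATAAA, on the opposite strand, and no TGANTCA. That of Mmp27 held neither motif, and nor did those of Mmp14 and Mmp25, which lie outside the cluster. The neighbours Mmp1a, Mmp1b, Mmp7, Mmp10 and Mmp20 are not among the listed genes, and their promoters were not read singly. Whether the motifs separate the brighter genes of the cluster from the dim ones was therefore not tested. Capitals mark the motif matches, and each sequence runs 5′ to 3′ on the gene's strand.
Mmp13: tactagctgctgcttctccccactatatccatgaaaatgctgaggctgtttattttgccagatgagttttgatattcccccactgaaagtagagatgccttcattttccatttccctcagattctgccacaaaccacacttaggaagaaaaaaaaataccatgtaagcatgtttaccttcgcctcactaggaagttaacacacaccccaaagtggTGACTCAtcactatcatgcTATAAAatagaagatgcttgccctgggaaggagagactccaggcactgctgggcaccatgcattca
Mmp12: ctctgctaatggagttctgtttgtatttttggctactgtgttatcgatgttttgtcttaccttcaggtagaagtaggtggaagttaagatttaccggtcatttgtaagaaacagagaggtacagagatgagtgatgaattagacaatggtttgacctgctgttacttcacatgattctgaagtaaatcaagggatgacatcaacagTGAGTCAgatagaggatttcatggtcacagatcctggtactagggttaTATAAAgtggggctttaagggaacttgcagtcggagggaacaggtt
Mmp3: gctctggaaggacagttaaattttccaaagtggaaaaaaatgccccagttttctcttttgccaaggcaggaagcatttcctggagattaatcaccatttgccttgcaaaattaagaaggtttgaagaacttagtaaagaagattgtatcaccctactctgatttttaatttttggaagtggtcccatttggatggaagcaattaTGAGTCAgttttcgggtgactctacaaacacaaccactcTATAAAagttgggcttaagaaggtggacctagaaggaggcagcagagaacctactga
Mmp8: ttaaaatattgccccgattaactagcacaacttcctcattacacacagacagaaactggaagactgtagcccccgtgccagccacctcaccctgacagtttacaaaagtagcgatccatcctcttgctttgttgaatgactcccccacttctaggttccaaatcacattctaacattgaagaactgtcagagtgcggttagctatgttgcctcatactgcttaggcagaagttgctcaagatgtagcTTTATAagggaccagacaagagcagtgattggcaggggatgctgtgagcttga
A match of letters is a description of the sequence, and no binding was measured here.

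Of the membrane-anchored MMPs, Mmp25, a GPI-linked enzyme known from human leukocytes, read 6.47 and 5.96 in CX3CR1low cells and 8.29 and 7.75 in CX3CR1bright cells, a 3.50-fold step. The difference of 1.81 ± 0.29 had an adjusted p of 0.0913 (limma). Mmp14, the membrane-bound enzyme that activates the precursor of MMP-2 on the cell surface together with TIMP-2, read 9.01 and 8.96 against 9.83 and 10.17. Both genes were higher on both CX3CR1bright arrays, Mmp14 by 1.02 ± 0.21 (limma, adjusted p = 0.111). Mmp23, a small membrane-anchored member, read 4.33 and 3.87 against 4.0 and 3.36 and overlapped between the subsets.

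The gelatinases, which digest denatured collagen and basement membrane, had differences of opposite sign. Mmp2 read 6.37 and 6.24 in CX3CR1low cells and 7.39 and 7.50 in CX3CR1bright cells, a difference of 1.14 ± 0.19 (limma, adjusted p = 0.0913). Mmp9 read 5.80 and 5.66 against 4.74 and 4.74, a difference of -0.99 ± 0.18 (limma, adjusted p = 0.102), just short of 2-fold. Neither pair of groups overlapped, with Mmp2 higher and Mmp9 lower on both CX3CR1bright arrays. Mmp19, an MMP that is expressed in macrophages and cleaves basement membrane proteins, read 11.26 and 11.32 against 10.60 and 9.91. Both CX3CR1bright arrays were below both CX3CR1low arrays, the second of them most, and the difference was -1.04 ± 0.28 (limma, adjusted p = 0.158). Mmp11, stromelysin-3, read 4.65 and 4.79 against 4.32 and 4.06, a difference of -0.53 ± 0.20 (limma, adjusted p = 0.250). A second, dimmer row for Mmp11 read 4.11 and 3.41 against 3.63 and 3.58, with overlap and a difference of -0.15.

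Timp1, a secreted inhibitor of most MMPs, read 8.07 and 7.70 in CX3CR1low cells and 6.66 and 6.75 in CX3CR1bright cells. It was 2.26-fold lower on the CX3CR1bright side without overlap, with a difference of -1.18 ± 0.21 (limma, adjusted p = 0.10). Timp2, which inhibits MMPs and also takes part in the activation of the MMP-2 precursor by MMP-14, read 10.72 and 10.70 against 9.99 and 10.27. Its difference was -0.57 ± 0.20 (limma, adjusted p = 0.219). Timp3, which binds to the matrix and also inhibits ADAM17 and several ADAMTSs, read 6.63 and 5.12 against 6.20 and 7.19. Its subsets overlapped and the difference was 0.82 ± 0.58 (limma, adjusted p = 0.513), with a range of 0.062 without CX3CR1low replicate 2 to 1.57 without CX3CR1low replicate 1. Timp4 lay near the array medians at 4.28 and 3.61 against 3.67 and 3.43. Thus Mmp2 and Mmp14 had positive differences while Timp1 and Timp2 had negative ones, none past the adjusted threshold. Others went the other way, with 0.82 for Timp3, -0.99 for Mmp9 and -1.04 for Mmp19. The summed level (log2 of the sum) of the 28 proteases was 12.99 and 13.03 in CX3CR1low and 12.89 and 12.84 in CX3CR1bright cells. That of the 4 TIMPs was 11.01 and 10.91 against 10.24 and 10.55. A balance of proteases and inhibitors was not tested.

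The ADAMTS genes were mostly low, and none was at least 2-fold apart without overlap. Adamts9, a protease of versican and aggrecan, read 4.90 and 4.82 in CX3CR1low cells and 5.41 and 5.31 in CX3CR1bright cells, a difference of 0.50 ± 0.18 (limma, adjusted p = 0.232). Adamts12 read 3.56 and 3.62 against 4.11 and 4.14, without overlap. The CX3CR1low levels of Adamts12 lay below the array medians, so it was tested only because it is high on the CX3CR1bright arrays, and its fitted difference is not given as a result. Adamts1, which also cleaves versican and aggrecan, read 5.69 and 4.72 against 5.59 and 7.03, with overlap and a difference of 1.11 ± 0.56. That difference was 0.38 without CX3CR1bright replicate 2 and 1.83 without CX3CR1bright replicate 1. Its highest value was on CX3CR1bright replicate 2, as for Timp3. Adamts4 and Adamts5, the classical aggrecanases of cartilage, differed by -0.38 ± 0.24 and 0.45 ± 0.27, and Adamts10, linked to fibrillin microfibrils, by 0.35 ± 0.46, none with an unadjusted p under 0.05 (limma).

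Markers of macrophages and of other skin cells differed between the same arrays. Bright genes ran lower on the CX3CR1bright arrays as a class. Over the 6141 genes above the 75th percentile on all arrays the median difference was -0.12. Of these, 429 were higher and 1224 lower at an unadjusted p under 0.05 (limma). The macrophage markers, at 8.14 to 12.20, belong to this class. They had a median difference of -0.34, with 8 of 11 lower without overlap, against 31.5% of all tested genes. At an unadjusted p under 0.05 (limma) 3 were lower and 0 higher, against 11.8% and 7.03%. Their summed level (log2 of the sum) was 14.53 and 14.56 on the CX3CR1low and 14.30 and 14.27 on the CX3CR1bright arrays. Timp1, Timp2, Mmp19 and most ADAMs had lower levels on the CX3CR1bright arrays as well. Of 12 fibroblast markers 11 had positive differences, with a median of 0.88, and their summed level was 10.79 and 10.35 on the CX3CR1low and 11.56 and 11.34 on the CX3CR1bright arrays. Their member Twist2 lay below the median on all arrays. Fibroblasts are a known source of Mmp2, Mmp3, Mmp14 and Timp3, and the fibroblast marker Pdgfra read 4.35 and 4.38 against 5.28 and 5.99. Of 11 keratinocyte markers 11 were positive, with a median of 1.5 and a summed level of 10.35 and 9.82 against 10.73 and 11.96, the last on CX3CR1bright replicate 2, where Adamts1 and Timp3 were highest. Of 5 Langerhans cell markers 5 were positive, with a median of 1.65 and a summed level of 7.15 and 7.03 against 8.16 and 9.86. Of 9 conventional dendritic cell markers 6 were positive and 3 negative, with a median of 0.52. Their mean lay 0.66 and 0.60 above the CX3CR1low mean on the CX3CR1bright arrays. The summed level was 10.36 and 10.67 against 10.31 and 10.19. Cd209a, the brightest of the list and so the largest part of that sum, differed by -1.30, while Flt3 and Ccr7 differed by 2.13 and 2.22. Of 9 neutrophil markers, which bear on Mmp8, Mmp9 and Mmp25, 5 had positive differences, with a median of 0.043, and S100a8, Ly6g, Camp, Ngp and Retnlg lay at or below the median on all arrays. Their summed level was 8.92 and 8.96 against 8.54 and 7.89, and its brightest member Csf3r read 8.67 and 8.74 against 8.14 and 7.18, while S100a8 and S100a9 had differences of 0.64 and 1.02. These were not all of the 12 marker lists read. The medians were 0.15 for endothelial, 0.11 for mural and smooth muscle and -0.26 for mast cell markers. They were 0.52 for T cell and 0.21 for Schwann cell and melanocyte markers. Of 7 monocyte markers 5 were positive and 2 negative, with a median of 0.12. Ccr2 among them read 5.18 and 5.02 against 7.19 and 6.80, while F13a1 differed by -1.15. The part of any of these cells in the differences was not tested. In sorted pools, fewer cells of a type and less RNA per cell cannot be told apart.

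**Figure D4:**
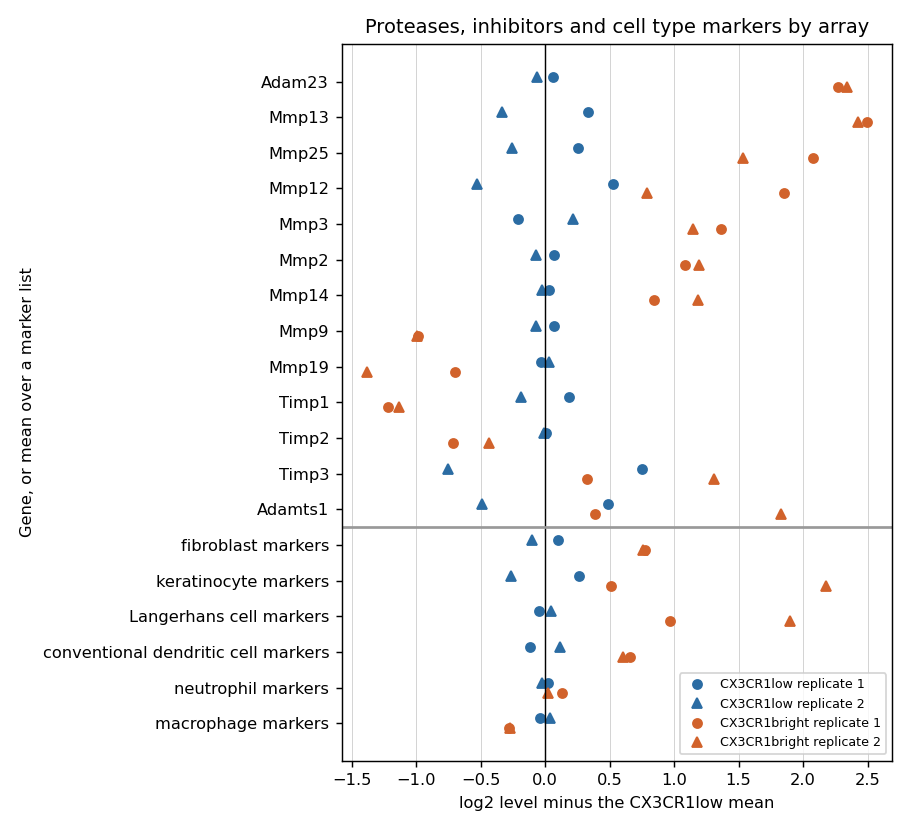
Level on each array minus the CX3CR1low mean (log2) for 13 protease and inhibitor genes (upper part) and for the mean over 6 cell type marker lists (lower part). Blue points are CX3CR1low and orange points CX3CR1bright arrays, circles replicate 1 and triangles replicate 2. The fibroblast markers lie at 0.77 and 0.76 on the CX3CR1bright arrays and the keratinocyte markers at 0.51 and 2.18, beside 1.09 and 1.19 for Mmp2.

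Of other genes of these pathways, in 5 lists, 0 passed the adjusted threshold (limma). Among 41 further ADAM, MMP and ADAMTS genes with a row, 33 were too dim to test. Adamts14, a procollagen N-propeptidase, read 5.58 and 5.27 in CX3CR1low cells and 3.76 and 3.67 in CX3CR1bright cells, near background in the latter, a difference of -1.71 ± 0.20 (limma, adjusted p = 0.0665). Adamts13, the protease of von Willebrand factor, read 3.05 and 3.01 against 3.94 and 4.07, and Adamts17 read 3.17 and 3.46 against 3.93 and 4.69. The CX3CR1low levels of both lay below the array medians. Of the 8 tested genes, Adamts13, Adamts17 and Mmp10 entered the test only through the CX3CR1bright arrays, where they are high, so no count of the 8 is given.

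Among 19 tested activators, partners and other inhibitors, 3 were higher and 4 lower at an unadjusted p under 0.05 (limma), against 7.03% and 11.8% of all tested genes, and the median over 22 genes was -0.11. Plat, the tissue-type activator of plasminogen, whose product plasmin can activate MMP precursors, read 5.17 and 5.76 in CX3CR1low cells and 7.33 and 8.06 in CX3CR1bright cells, a difference of 2.23 ± 0.34 (limma, adjusted p = 0.0845). Serpinb2, an inhibitor of plasminogen activators, read 7.63 and 7.10 against 8.69 and 9.97, a difference of 1.97 ± 0.46 (limma, adjusted p = 0.136). The subsets overlapped for neither gene. Tspan17, a tetraspanin of the group that guides ADAM10 to the surface, differed by -0.70 ± 0.20. Chosen after their values were seen, Rhbdf2, the iRhom2 gene needed for ADAM17 maturation in macrophages, differed by -0.72 ± 0.20 and the convertase gene Furin, which removes the prodomain of ADAMs and membrane-type MMPs, by -0.60 ± 0.19 (limma, adjusted p = 0.170 and 0.199).

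Of 28 tested substrates of ADAM10 or ADAM17, 3 were higher and 6 lower at an unadjusted p under 0.05 (limma), against 7.03% and 11.8% of all tested genes, and the median over 30 genes was -0.12. The receptor tyrosine kinase gene Axl read 7.89 and 7.30 in CX3CR1low cells and 10.15 and 10.36 in CX3CR1bright cells, a difference of 2.66 ± 0.26 (limma, adjusted p = 0.0541). Il1r2, a decoy receptor for interleukin-1, differed by 1.88 ± 0.23 and Hbegf, a ligand of the EGF receptor, by -1.51 ± 0.21 (limma, adjusted p = 0.0706 and 0.0794). Of 16 tested matrix substrates 12 were higher and 0 lower at an unadjusted p under 0.05 (limma), against 7.03% and 11.8% of all tested genes, with a median of 0.79 over 17 genes. Col1a1 and Col1a2, the chains of type I collagen, differed by 1.33 ± 0.19 and 1.11 ± 0.18 and the fibronectin gene Fn1 by 1.34 ± 0.24. Several of these genes, Col1a1 and Col1a2 included, are also the fibroblast markers above, so the 2 lists are not separate evidence.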

How the data were processed

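RNA of 4 sorted samples, 2 CX3CR1low and 2 CX3CR1bright, was hybridised to Affymetrix whole-transcript arrays. Per the submitters' processing notes, the authors used RMA and Affymetrix Expression Console 1.4, and the deposited values are log2 levels. RMA corrects background, equalises the arrays and summarises probes, and it compresses folds of dim genes. The genome build is not given in the sources used here. Probe intensities and detection calls were not used here.

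Of 34390 transcript clusters, 23521 carried 1 gene symbol, 1814 several and 9055 none. Genes were named from single-symbol clusters, and symbols were checked by Entrez identifier against RefSeq (23328 matched, 0 updated). The cluster with the highest mean was used, and 3 of the 32 genes had more than 1. The fit was limma 3.58.1 in R 4.3.3 (default prior, two-sided, Benjamini-Hochberg over 13133 genes, threshold 0.05), with 2 residual and 3.28 prior degrees of freedom, and was tested on simulated data. P-values rest on the spread of mouse pools and not of single mice, and the number of arrays limits the precision.

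The genes and lists were chosen with earlier results of these data known. All 32 genes are named. From each related list the 3 genes with the smallest p were named. Genes named beyond these are cluster neighbours, markers or binding partners, or are marked. Alternatives covered filters, scaling, the variance prior, thresholds, a replicate block and leaving out each array. Promoters are RefSeq's. They were matched by symbol.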

Additional observations from a re-analysis of the deposited data

How the results depend on the processing

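The number of tested genes past the threshold was 18, and of these 1 was among the proteases and inhibitors. The counts were 1 and 0 with no filter, after quantile normalization and under a robust prior, 435 and 4 with a stricter filter (all arrays above the 75th percentile), 308 and 6 under an intensity trend, and 33 and 1 after cyclic loess. At an adjusted p under 0.10 they were 293 and 4, and at an unadjusted p under 0.05 (limma) 2467 and 16. With 1 array left out they ran from 0 to 195 and from 0 to 2. Mmp2, Mmp14, Mmp25 and Timp1 passed with the stricter filter and, with Adam23 and Mmp13, under the trend. The stricter filter tested 6141 genes, 14 of the proteases and inhibitors among them, and left Adam23 and Mmp13 untested. The labels do not link same-numbered arrays to 1 litter, and the arrays' deviations correlated at r = 0.16 over genes. The replicate block gave 0 and 0 (limma, with 2637 genes at an unadjusted p under 0.05), with 1 residual degree of freedom and an adjusted p of 0.129 for Adam23. The protease median was -0.074 to 0.41 with 1 array left out, and the TIMP median -0.66 to -0.31. Mmp27 ran from -0.62 to 0.18 and Adamts10 from -0.32 to 1.02, each changing sign in 1 case. The other tested genes kept their sign under the alternatives that tested them. An arm of 1 array was assumed to vary like the other. The causes of these shifts were not tested. Signal near background limits Adamts12, Mmp23 and Mmp27.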
